A study of Mus musculus with 8 samples.

Results

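Expression of 8 genes for receptors of monocyte (MC) trafficking was examined in flow-sorted mouse blood MCs. The genes were Ccr1, Ccr2, Ccr7, Cx3cr1, Cxcr2, Cxcr3 and Cxcr4, which encode signalling chemokine receptors, and Ccrl2, which encodes an atypical receptor of the same family. They were taken by gene symbol, with earlier results of these data known, and all 8 were among the 16486 genes of the expression table. Their values came from 8 bulk RNA-Seq libraries.

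Control (CT) mice were untreated C57/BL6 animals. The T1DM model was the same strain made diabetic with streptozotocin (STZ), a toxin that kills the beta cells of the pancreas, given at 50 mg/kg per day on 5 days, starting at an age of 8 weeks. The T2DM model was the db/db mouse, homozygous for a mutation of the leptin receptor, so this model carries obesity and absent leptin signalling along with diabetes. All mice were male, ate normal chow and were 20 to 22 weeks old when blood was taken. CD11b+Ly6G-Ly6Chigh and CD11b+Ly6G-Ly6Clow cells were sorted, and RNA from 5 mice per group was pooled. There were 2 libraries of CT Ly6Chigh MCs, 2 of CT Ly6Clow MCs and 1 for each subset of each diabetic model. The paper describes 2 datasets for every group, so fewer diabetic libraries were available here than it used. Whether a diabetic library given here merges duplicates is not known. Because each pool was sequenced in duplicate, the CT replicates may be technical, and p-values measure only the spread between these libraries. A NextSeq instrument was used for CT and a HiSeq instrument for diabetic libraries, so in diabetic against CT MCs the sequencer and diabetes cannot be told apart.

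Chemokine receptors are proteins of the G protein-coupled receptor family that guide leukocytes along gradients of secreted chemokines. Ly6Chigh (classical) MCs leave the bone marrow and enter inflamed tissue through Ccr2 and its ligand Ccl2. Ly6Clow (nonclassical) MCs patrol the vessel wall and are known for high Cx3cr1, the fractalkine receptor. Cxcr4 holds leukocytes in the marrow through Cxcl12, while Ccr7, Cxcr2 and Cxcr3 are best known from lymphocyte and dendritic cell (DC) homing to lymph nodes, from neutrophils, and from activated T and NK cells, respectively.

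In the GENCODE M21 annotation of build GRCm38, all 8 are protein-coding genes. Ccr1 (chr9:123962124-123968692, minus strand), Ccr2 (chr9:124101950-124113557, plus), Ccrl2 (chr9:111054486-111057519, minus) and Cx3cr1 (chr9:119901616-120069879, minus) share a chromosome. Cxcr2 (chr1:74153989-74161246, plus) and Cxcr4 (chr1:128588199-128592293, minus) are both on chromosome 1. Ccr7 is at chr11:99144196-99155077 on the minus strand and Cxcr3 at chrX:101731535-101734269 on the minus strand. RefSeq promoter windows of GRCm38.p6, from 250 bases before to 50 bases after a start site, were matched for 7 of the 8 genes, all but Ccr7. The stretches just before the start site are shown for Ccr1, Cxcr2 and Cxcr4. Of the 8 receptors, Ccr1 and Cxcr2 lay furthest above CT MCs in T2DM libraries, in different subsets, and Cxcr4 was higher in both T1DM libraries. Each reads 5′ to 3′ on the strand of its gene, at chr9:123968693-123968942 (minus), chr1:74153744-74153988 (plus) and chr1:128592300-128592549 (minus). Capitals mark matches to the motifs described after them.
Ccr1: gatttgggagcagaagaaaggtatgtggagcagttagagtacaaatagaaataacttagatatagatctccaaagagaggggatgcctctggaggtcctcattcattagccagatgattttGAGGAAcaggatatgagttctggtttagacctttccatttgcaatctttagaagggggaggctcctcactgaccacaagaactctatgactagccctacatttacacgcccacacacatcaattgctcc
Cxcr2: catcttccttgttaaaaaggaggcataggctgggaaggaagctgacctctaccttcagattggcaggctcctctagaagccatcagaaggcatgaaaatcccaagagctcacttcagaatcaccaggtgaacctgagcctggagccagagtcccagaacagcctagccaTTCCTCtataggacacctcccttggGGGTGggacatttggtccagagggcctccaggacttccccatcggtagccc
Cxcr4: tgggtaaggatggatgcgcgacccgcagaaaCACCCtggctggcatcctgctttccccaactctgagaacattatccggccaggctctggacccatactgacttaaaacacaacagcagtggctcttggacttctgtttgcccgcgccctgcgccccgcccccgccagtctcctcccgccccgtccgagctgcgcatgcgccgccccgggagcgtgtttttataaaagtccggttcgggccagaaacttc

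The motifs were searched on both strands of the windows. They were GAGGAA for PU.1, a factor of myeloid cells, CACCC for the KLF family, TTGCNNAA for C/EBP, AAAGGTCA for the NR4A family, TGANTCA for AP-1, GAAANNGAA for IRF factors and ACGTG for HIF. The Ccr1 window held GAGGAA beginning at -129, counted from the start site, and no other of these motifs. The Cxcr2 window held the reverse complement of GAGGAA at -81 and at 7 and that of CACCC at -56. The Cxcr4 window held CACCC at -219 only. Of 32851 windows of the same length over all genes, 28.3% held GAGGAA, 57.5% CACCC, 10.8% TTGCNNAA, 1.51% AAAGGTCA, 7.81% TGANTCA, 8.56% GAAANNGAA and 19.6% ACGTG. The Cxcr3 window also held GAGGAA at -14, and further matches were GAAANNGAA in the Ccr2 window at -86, CACCC in the Cx3cr1 window and ACGTG and CACCC in windows of Ccrl2. A match describes letters in the window and is no evidence of binding.

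The authors deposited normalized log2 values, which ran from -4.05 to 15.64 and hold no counts, so the depth behind a value is unknown. Values were compared between libraries within a gene and not between genes, because it is not known whether they are scaled by gene length. The spread between CT replicates set the precision. The median absolute difference between them was 0.257 (log2) in Ly6Chigh and 0.247 in Ly6Clow MCs over all genes. It was 0.058 and 0.064 for the 608 genes with a mean log2 value of 8 or more, and 0.334 and 0.288 for the 3514 genes between 2 and 4. The receptors differed by 0.02 to 0.92 between CT Ly6Chigh replicates and by 0.01 to 0.66 between CT Ly6Clow replicates.

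The sort was checked against marker genes, whose linear values (2 raised to the log2 value) were summed per list. The 8 classical MC markers (Ly6c2, Vcan, Chil3, F13a1, Fn1, Mgst1, Hp and Cd14) summed to 9264.5 to 25210.7 in Ly6Chigh and 600.9 to 845.1 in Ly6Clow libraries. The 9 nonclassical markers (Nr4a1, Ace, Treml4, Cd300e, Spn, Pou2f2, Itgal, Eno3 and Adgre4) summed to 1400.6 to 2969.4 and 3510.2 to 4648.3. Ly6Clow libraries also held RNA of lymphocytes: the 10 B cell markers summed to 2427.5 to 3171.3, against 111.0 to 185.8 in Ly6Chigh libraries, the 9 NK cell markers to 155.8 to 909.7 against 29.2 to 116.9, and the 10 T cell markers to 44.4 to 55.6 against 21.7 to 32.3. All 10 B cell markers, 8 of 9 NK cell markers and 1 of 10 T cell markers, Lck, were called lower in Ly6Chigh MCs in the pooled test described next. That test called 12.1% of all genes. Sums of 7 DC markers were 122.9 to 280.0 in Ly6Chigh and 308.4 to 525.0 in Ly6Clow libraries. Of these, 2 (Zbtb46 and Btla) were called lower in Ly6Chigh MCs, while Flt3 and Clec10a had higher values there without a call. Sums of 6 neutrophil markers were 413.8 to 1387.0 and 13.4 to 46.8, of 2 eosinophil markers 4.2 to 7.5 and 56.5 to 71.8, of 3 plasmacytoid DC markers 142.6 to 237.7 and 231.4 to 279.2, and of 6 platelet markers 98.8 to 314.0 and 125.4 to 326.4. The eosinophil split came from Il5ra, with log2 values of 1.69 to 2.62 in Ly6Chigh and 5.80 to 6.13 in Ly6Clow libraries. Siglecf, the other eosinophil marker, overlapped between the subsets (-0.08 to 0.69 and -0.51 to 1.93). No marker had a log2 value under 0 in every library. In these bulk samples, fewer cells of a type and less RNA per cell cannot be told apart.

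**Figure D1:**
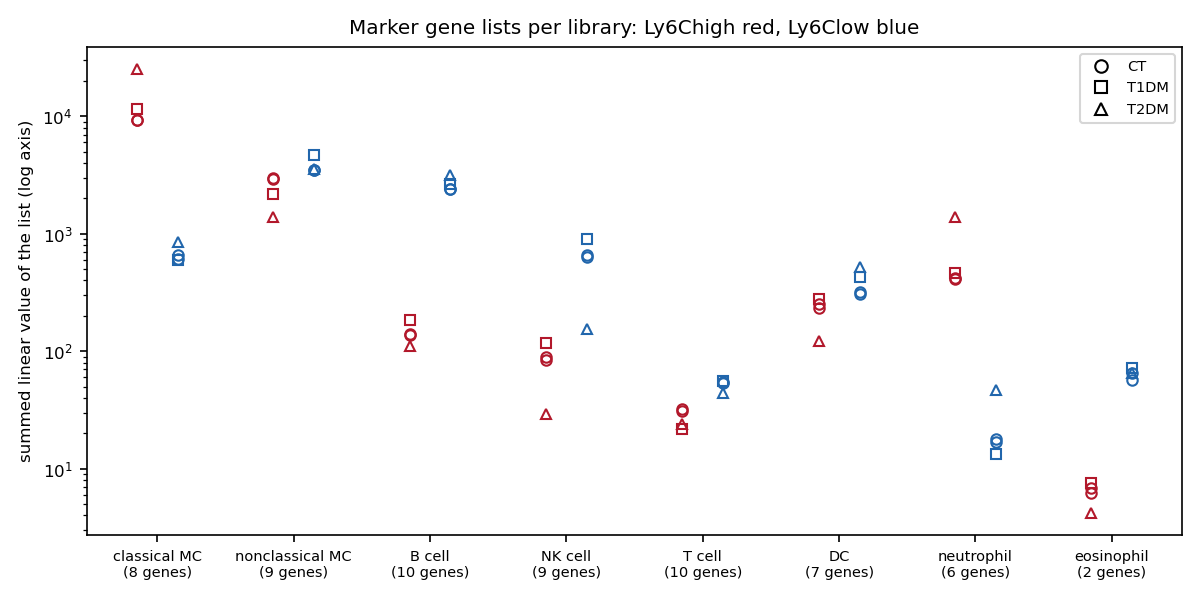
Summed linear values of 8 marker lists (vertical axis, log scale) in each of the 8 libraries, with Ly6Chigh libraries in red, Ly6Clow libraries in blue and the mouse group by symbol. The B cell sum lay between 2427.5 and 3171.3 in Ly6Clow and between 111.0 and 185.8 in Ly6Chigh libraries.

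The first question was how the subsets differ in these receptors. Ly6Chigh and Ly6Clow MCs were compared with limma in CT mice (2 libraries each) and over all 8 libraries in a fit that takes up the mouse group, here named the pooled test. A gene was called at a Benjamini-Hochberg adjusted p under 0.01 and an absolute log2FC above 1, the study's criteria. Ccr2 was the receptor called higher in Ly6Chigh MCs in both tests, and Ccr7 was called lower in the pooled test. In CT MCs 1 of the 8 receptors was called, where 3.52% of all genes were. In the pooled test 2 of 8 were called, where 12.1% of all genes were. The 4 Ly6Chigh libraries lay all above or all below the 4 Ly6Clow libraries for 4 of the 8, namely Ccr2, Ccr7, Cxcr2 and Cxcr3, and for 32.8% of all genes. The separation of Cxcr3 did not hold after quantile normalization, which turned its Ly6Chigh minus Ly6Clow difference in T2DM mice from -0.28 to 0.20. The median log2FC of the receptors was -0.23 in CT and -0.08 in the pooled test, beside -0.09 and -0.08 over all genes.

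**Figure D2:**
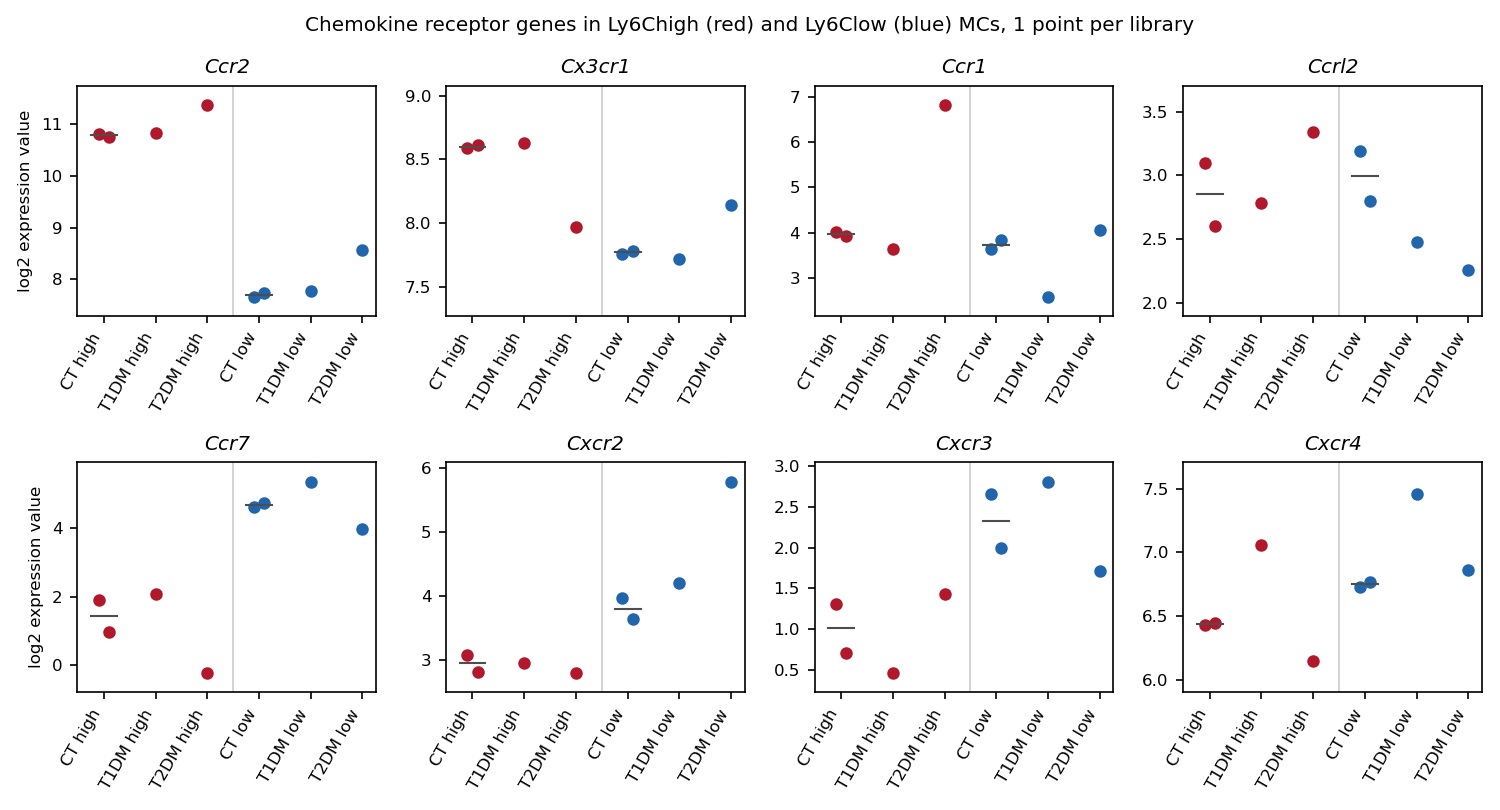
Deposited log2 expression values (vertical axis, its own range in each panel) of the 8 receptor genes in each library, in 6 groups of mouse and subset. Points are libraries and lines are means of the 2 CT libraries. Ccr2 lay at 10.76 to 11.37 in Ly6Chigh and 7.67 to 8.57 in Ly6Clow libraries, Ccr1 stood at 6.81 in T2DM Ly6Chigh MCs, and Cxcr2 at 5.78 in T2DM Ly6Clow MCs.

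Ccr2, the receptor of Ccl2 that marks classical MCs, was 8.45-fold higher in CT Ly6Chigh than CT Ly6Clow MCs. Its log2 value was 10.81 and 10.76 in the CT Ly6Chigh libraries, 10.83 in T1DM and 11.37 in T2DM Ly6Chigh MCs. Ly6Clow MCs had 7.67 and 7.74 (CT), 7.77 (T1DM) and 8.57 (T2DM). All Ly6Chigh libraries stood far above all Ly6Clow libraries, and in both subsets the T2DM library was the highest. The log2FC of the subsets was 3.08 in CT (SE 0.04, limma adjusted p = 0.00168) and 3.00 in the pooled test (SE 0.08, adjusted p = 3.47e-07). T1DM mice had a difference of 3.06 and T2DM mice of 2.80, without a test. With any single CT library left out, the CT log2FC was 3.04 to 3.12. The call was lost in such fits, which have 1 library in a subset, and that loss was not particular to Ccr2. T2DM libraries exceeded the CT mean by 0.58 in Ly6Chigh and 0.87 in Ly6Clow MCs, where CT replicates differed by 0.05 and 0.07. The classical marker sum was also higher in T2DM than CT libraries, at 25210.7 against 9264.5 and 9289.3 in Ly6Chigh and 845.1 against 610.5 and 655.8 in Ly6Clow MCs. In T1DM it was 11501.7 and 600.9. Fn1 (log2 value 13.74, against 12.26 and 12.24 in CT) was the largest part of the T2DM Ly6Chigh sum. Ly6c2 was level there (8.58, against 8.61 and 8.56), and the other classical markers were higher than in CT. The part of the classical marker sum in Ccr2 was not tested. T1DM libraries were 0.04 and 0.06 above CT, less than or close to the replicate difference. T2DM against T1DM over both subsets gave a log2FC of 0.67 (SE 0.11, limma adjusted p = 0.0193), which did not reach the limits for a call.

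Cx3cr1, which keeps nonclassical MCs on the vessel wall and supports their survival, was not higher in the Ly6Clow sort of CT or T1DM mice. Its log2 value was 8.59 and 8.61 in CT Ly6Chigh and 8.63 in T1DM Ly6Chigh MCs, and 7.76, 7.78 and 7.72 in the corresponding Ly6Clow MCs. In T2DM mice it was 7.97 in Ly6Chigh and 8.14 in Ly6Clow MCs. The 2 T2DM libraries thus lay between the levels that the subsets had in the other mice, and the order of the subsets was the opposite. The CT log2FC of Ly6Chigh minus Ly6Clow was 0.83 (SE 0.04, limma adjusted p = 0.00541), which passed the p limit but not the limit of size. It was 0.54 after quantile normalization. The pooled log2FC was 0.60 (SE 0.17, adjusted p = 0.0235), or 0.33 after quantile normalization, which moved the median of all genes by 0.12. The T2DM library was 0.63 below the CT mean in Ly6Chigh and 0.37 above it in Ly6Clow MCs, where CT replicates differed by 0.02 and 0.01. The subset difference in diabetic minus that in CT mice was -0.46 (95% interval -1.20 to 0.28, adjusted p = 0.865). Of the 9 nonclassical markers, 7 had lower values in Ly6Chigh than Ly6Clow MCs in CT mice and 1, Cd300e, was called, beside 3.52% of all genes. In the pooled test 9 of 9 were lower and 4 were called, beside 12.1% of all genes. Nr4a1, which nonclassical MCs need for their formation, had a log2FC of 0.18 in CT (adjusted p = 0.253). The nonclassical marker sum of the T2DM Ly6Chigh library was 1400.6, against 2903.4 and 2969.4 in CT. Neither its part nor that of B and NK cell RNA in the levels of Cx3cr1 was tested.

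Ccr1, an inflammatory receptor of MCs and neutrophils for Ccl3, Ccl5, Ccl6 and Ccl9, was set apart by a single library. The log2 value of Ccr1 was 4.01 and 3.92 in the CT libraries, 3.64 in T1DM and 6.81 in T2DM among Ly6Chigh MCs. Ly6Clow MCs had 3.64 and 3.83 (CT), 2.59 (T1DM) and 4.05 (T2DM). T2DM Ly6Chigh MCs had a level 7.22-fold above the CT mean (log2 difference 2.85, CT replicate difference 0.09), and T1DM Ly6Clow MCs lay 1.14 below CT (replicate difference 0.19). CT subsets differed by 0.22 (SE 0.16, limma adjusted p = 0.376). The pooled subset difference was 1.07 (SE 0.38, adjusted p = 0.0618), and was made of 1.05 in T1DM and 2.77 in T2DM libraries beside that of CT. Without the T2DM libraries it was 0.50. From high to low, the order of groups was T2DM Ly6Chigh, T2DM Ly6Clow, CT Ly6Chigh, CT Ly6Clow, T1DM Ly6Chigh and T1DM Ly6Clow. In this order T2DM Ly6Clow and CT Ly6Chigh, and CT Ly6Clow and T1DM Ly6Chigh, were closer than the CT replicates. T2DM exceeded T1DM by 2.31 over both subsets (SE 0.54, limma adjusted p = 0.0799). In the same T2DM Ly6Chigh library the classical marker sum was 25210.7, against 9264.5 and 9289.3 in CT and 11501.7 in T1DM Ly6Chigh MCs. There the neutrophil marker sum was 1387.0, against 413.8 and 417.6 in CT and 464.0 in T1DM. The neutrophil sum came mostly from Mmp8 (log2 value 9.70) and Cd177 (9.07), while another of its genes, Retnlg, was lower than in CT (-1.55 against 1.98 and 1.46). Their part in the level of Ccr1 was not tested.

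Ccr7, which brings lymphocytes and mature DCs into lymph nodes, was 11.2-fold lower in Ly6Chigh than Ly6Clow MCs in the pooled test. The log2 value of Ccr7 was 1.89 and 0.98 in the CT libraries, 2.09 in T1DM and -0.23 in T2DM among Ly6Chigh MCs. It was 4.62 and 4.73 in the CT libraries, 5.36 in T1DM and 3.99 in T2DM among Ly6Clow MCs. The subsets did not overlap, and within each subset T1DM was the highest and T2DM the lowest. The pooled log2FC was -3.49 (SE 0.29, limma adjusted p = 4.04e-05) and that in CT -3.24 (SE 0.38, adjusted p = 0.0188). The CT difference passed the call when genes with a mean log2 value under 1 were left out (adjusted p = 0.00401). T2DM against T1DM gave -1.84 over both subsets (SE 0.41, adjusted p = 0.0652). The T2DM Ly6Chigh library lay 1.66 below the CT mean, beyond the replicate difference of 0.92, and the T2DM Ly6Clow library 0.69 below and the T1DM Ly6Clow library 0.69 above it, beyond 0.11. B cell, NK cell, T cell and DC marker sums were higher in all Ly6Clow than in all Ly6Chigh libraries, like Ccr7. The DC markers were mixed in CT mice, where 4 of 7 were higher and 3 lower in Ly6Chigh MCs (median log2FC 0.0). Btla, the largest part of the DC sum in Ly6Clow libraries, was called lower in Ly6Chigh MCs in both tests. The B cell sum was highest in T2DM Ly6Clow MCs, where Ccr7 was the lowest of the Ly6Clow libraries, and the NK cell sum was lowest there (155.8). The part of these cells in the level of Ccr7 was not tested.

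Cxcr2, the neutrophil receptor for Cxcl2, Cxcl5 and Ppbp, had its highest level in T2DM Ly6Clow MCs. Ly6Chigh MCs had log2 values of 3.07 and 2.81 (CT), 2.95 (T1DM) and 2.79 (T2DM), so these 4 libraries differed by no more than CT replicates did in Ly6Clow MCs. Ly6Clow MCs had 3.96 and 3.63 (CT), 4.19 (T1DM) and 5.78 (T2DM). Every Ly6Clow library was above every Ly6Chigh library. The T2DM Ly6Clow level was 3.95-fold above the CT mean (log2 difference 1.98, replicate difference 0.33) and 3.00-fold above T1DM (log2 difference 1.59). The subset log2FC was -0.86 in CT (SE 0.22, limma adjusted p = 0.0788) and -1.49 in the pooled test (SE 0.35, adjusted p = 0.0107). The pooled adjusted p was 0.00684 when genes with a mean log2 value under 1 were left out, which passed the call, and the pooled log2FC was -0.99 without the T2DM libraries. The neutrophil marker sum was 46.8 in T2DM Ly6Clow MCs, against 16.7 and 17.9 in CT and 13.4 in T1DM. Within it Ngp had a log2 value of 3.49 and Retnlg of 3.30, against at most 0.91 and 1.02 in CT Ly6Clow MCs. Mmp8 (3.35) and Mmp9 (2.17) were also above both CT Ly6Clow libraries. Cd177 (2.94) was level with the higher CT Ly6Clow value of 2.92, and Ltf (1.76) was below that of 1.83. In Ly6Chigh libraries the neutrophil sum was higher than in Ly6Clow libraries, the reverse of Cxcr2, and came mostly from Cd177 and Mmp8. The part of neutrophil RNA in the level of Cxcr2 was not tested. Of the sequences of 31 bases in Cxcr2 transcripts, 12.1% also occur in other genes, the largest share of the 8 receptors, so its reads are the least securely assigned.

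Cxcr3, which guides activated T and NK cells to Cxcl9, Cxcl10 and Cxcl11, was at low values throughout. The log2 value of Cxcr3 was 1.31 and 0.71 in the CT libraries, 0.46 in T1DM and 1.43 in T2DM among Ly6Chigh MCs. It was 2.66 and 1.99 in the CT libraries, 2.81 in T1DM and 1.71 in T2DM among Ly6Clow MCs. The subsets did not overlap, but the T2DM libraries of both subsets were 0.28 apart, and no neighbours in the order of the 6 groups differed by more than CT replicates. The log2FC was -1.32 in CT (SE 0.40, limma adjusted p = 0.107) and in the pooled test (SE 0.39, adjusted p = 0.0317), and -0.84 and -0.87 after quantile normalization. In T2DM Ly6Clow MCs, the lowest of the Ly6Clow libraries for Cxcr3, the NK cell and T cell sums were also the lowest of the Ly6Clow libraries, at 155.8 and 44.4. The T cell markers were mixed. Among Ly6Clow libraries, Lck (3.47), Cd4, Cd5 and Cd6 were lowest in T2DM, while Cd3d (2.56), Cd3g (1.78), Cd8b1 and Bcl11b were highest there. The part of these cells in the level of Cxcr3 was not tested.

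Cxcr4, the receptor for Cxcl12 that retains leukocytes in bone marrow, was higher in both T1DM libraries than in the CT libraries of their subset. The log2 value of Cxcr4 was 6.43 and 6.45 in the CT libraries, 7.06 in T1DM and 6.15 in T2DM among Ly6Chigh MCs. It was 6.73 and 6.77 in the CT libraries, 7.46 in T1DM and 6.86 in T2DM among Ly6Clow MCs. In both subsets the T1DM library was the highest, and within each mouse group Ly6Clow MCs were above Ly6Chigh MCs. T1DM libraries exceeded the CT mean by 0.62 in Ly6Chigh (1.53-fold) and 0.70 in Ly6Clow MCs (1.63-fold), where CT replicates differed by 0.02 and 0.04. T2DM libraries lay 0.29 below and 0.11 above CT. T2DM against T1DM gave a log2FC of -0.75 over both subsets (SE 0.14, limma adjusted p = 0.0372). The subset log2FC was -0.31 in CT (SE 0.06, adjusted p = 0.0520) and -0.43 in the pooled test (SE 0.10, adjusted p = 0.0104), and the CT value was -0.51 after quantile normalization. Platelet marker sums were likewise highest in T1DM (314.0 and 326.4), with 181.1 to 239.6 in CT and 98.8 and 125.4 in T2DM libraries. NK cell marker sums of Ly6Chigh MCs were 116.9 in T1DM, 84.5 and 89.3 in CT and 29.2 in T2DM, and those of Ly6Clow MCs were 909.7, 630.5 and 665.7, and 155.8 in the same order. The part of these cells in the level of Cxcr4 was not tested.

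Ccrl2, which binds the attractant chemerin (Rarres2) and presents it to cells carrying Cmklr1 without signalling itself, had group levels whose neighbours lay within the replicate spread. Its log2 value was 3.10 and 2.60 in the CT libraries, 2.78 in T1DM and 3.34 in T2DM among Ly6Chigh MCs. It was 3.19 and 2.80 in the CT libraries, 2.48 in T1DM and 2.26 in T2DM among Ly6Clow MCs. No neighbours in the order of the 6 groups differed by more than CT replicates, which were 0.50 apart in Ly6Chigh MCs. The ends of the order were further apart, as T2DM Ly6Chigh exceeded T2DM Ly6Clow MCs by 1.08. The subset log2FC was -0.15 in CT (SE 0.29, limma adjusted p = 0.743) and 0.27 in the pooled test (95% interval -0.38 to 0.92, adjusted p = 0.516). The CT value turned to 0.10 after quantile normalization or without CT Ly6Chigh replicate 2, and to 0.04 without CT Ly6Clow replicate 1.

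**Figure D3:**
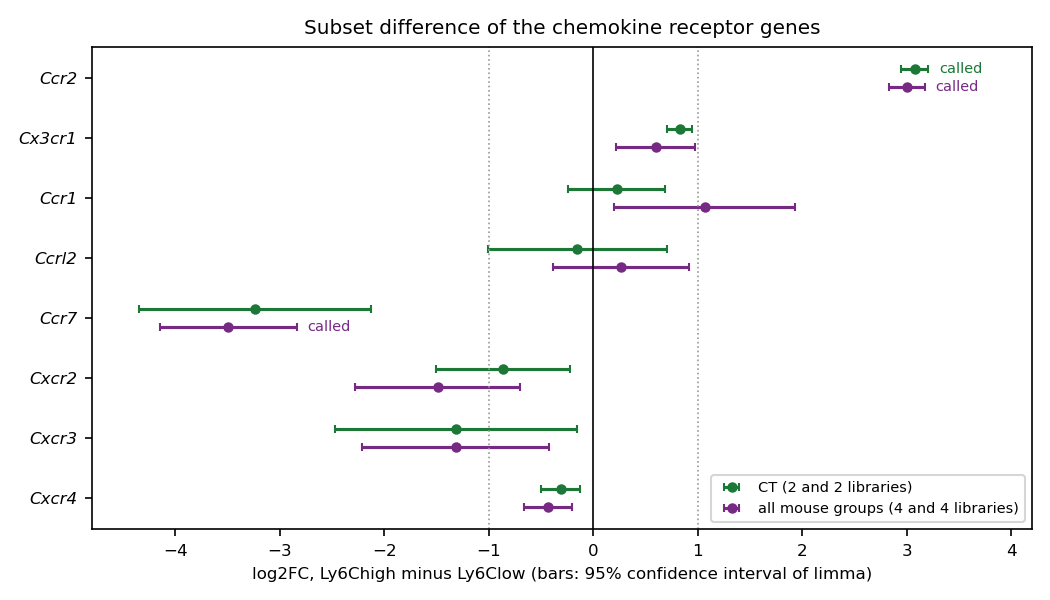
log2FC of Ly6Chigh minus Ly6Clow MCs (horizontal axis) for each receptor in CT mice (green) and in the pooled test (purple), with 95% confidence intervals of limma. Dotted lines mark the size limit of 1 for a call. Ccr2 lay at 3.08 and 3.00 and Ccr7 at -3.24 and -3.49, and the other receptors lay between -1.49 and 1.07.

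The next question was what diabetes changed within each subset. With the 2 libraries of T1DM and T2DM mice averaged in each subset and set against CT, limma called 0 of the 8 receptors and 0.0% of all genes in Ly6Chigh MCs. It likewise called 0 of 8 and 0.0% in Ly6Clow MCs, and 0 of 8 and 0.0% for the difference between diabetic and CT mice in the subset log2FC. At an unadjusted p under 0.05 these counts were 0, 1 and 0 of 8 receptors, and 739, 489 and 1084 of 16486 genes. The receptor was Cxcr2 in Ly6Clow MCs, with a log2FC of 1.19 (SE 0.48, unadjusted p = 0.0401, limma adjusted p = 1.00), or 0.39 without the T2DM and 1.98 without the T1DM library. The T1DM and T2DM libraries are 1 each, and their difference counts as spread in this test. In Ly6Chigh MCs they lay on opposite sides of the CT mean for all receptors but Ccr2. The widest splits were those of Ccr1 (-0.32 in T1DM and 2.85 in T2DM) and Ccr7 (0.65 and -1.66), followed by Cxcr3 (-0.55 and 0.42) and Cxcr4 (0.62 and -0.29), while Ccrl2 (-0.07 and 0.49), Cxcr2 (0.02 and -0.14) and Cx3cr1 (0.03 and -0.63) were near CT in T1DM. The T1DM value of Cxcr2 turned to -0.02 with quantile normalization, and that of Ccrl2 to 0.18 without CT Ly6Chigh replicate 1. In Ly6Clow MCs only Ccr1, Ccr7, Cx3cr1 and Cxcr3 had the models on opposite sides of CT. Ccr2, Ccrl2, Cxcr2 and Cxcr4 had them on the same side, though the T1DM value of Ccr2 (0.06) turned to -0.04 with quantile normalization. The share of all genes split in this way was not determined. Over all genes the mean of the 4 diabetic libraries minus that of the 4 CT libraries had an SD of 0.272, while the T2DM mean minus the T1DM mean had an SD of 0.743. For the receptors the first ran from -0.25 to 0.56 and the second from -1.84 to 2.31. Pairs of CT libraries shared between 205 and 667 exactly equal values and pairs of diabetic libraries between 151 and 332, but CT libraries shared 0 with diabetic libraries in all 16 combinations. Whether the authors adjusted the CT and diabetic libraries to each other is not given in the sources used here. An adjustment made gene by gene could by itself bring few calls and put T1DM and T2DM on opposite sides of CT. Neither outcome is therefore read as a result about diabetes. Differences of single diabetic libraries from CT depend on such an adjustment as well, and its part was not tested.

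Each diabetic library was also set against the CT mean of its subset, with no test. T2DM Ly6Chigh MCs had 2 of 8 receptors past 2-fold, Ccr1 higher and Ccr7 lower, where 13.8% of all genes were past 2-fold. T2DM Ly6Clow MCs had 1, Cxcr2, where 10.8% of all genes were. T1DM Ly6Chigh MCs had 0 of 8 where 10.1% of all genes were, or 1, Ccr7 at 1.11, without CT Ly6Chigh replicate 1, and T1DM Ly6Clow MCs had 1, Ccr1 at a lower level, where 8.81% were. Between the subsets, 5 of 8 receptors were past 2-fold in T1DM mice, beside 27.9% of all genes, with Ccr1 and Ccr2 higher and Ccr7, Cxcr2 and Cxcr3 lower in Ly6Chigh MCs. In T2DM mice 5 were as well, beside 29.1%, with Ccr1, Ccr2 and Ccrl2 higher and Ccr7 and Cxcr2 lower. These comparisons share the CT libraries or a diabetic library, so their values are not independent.

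**Figure D4:**
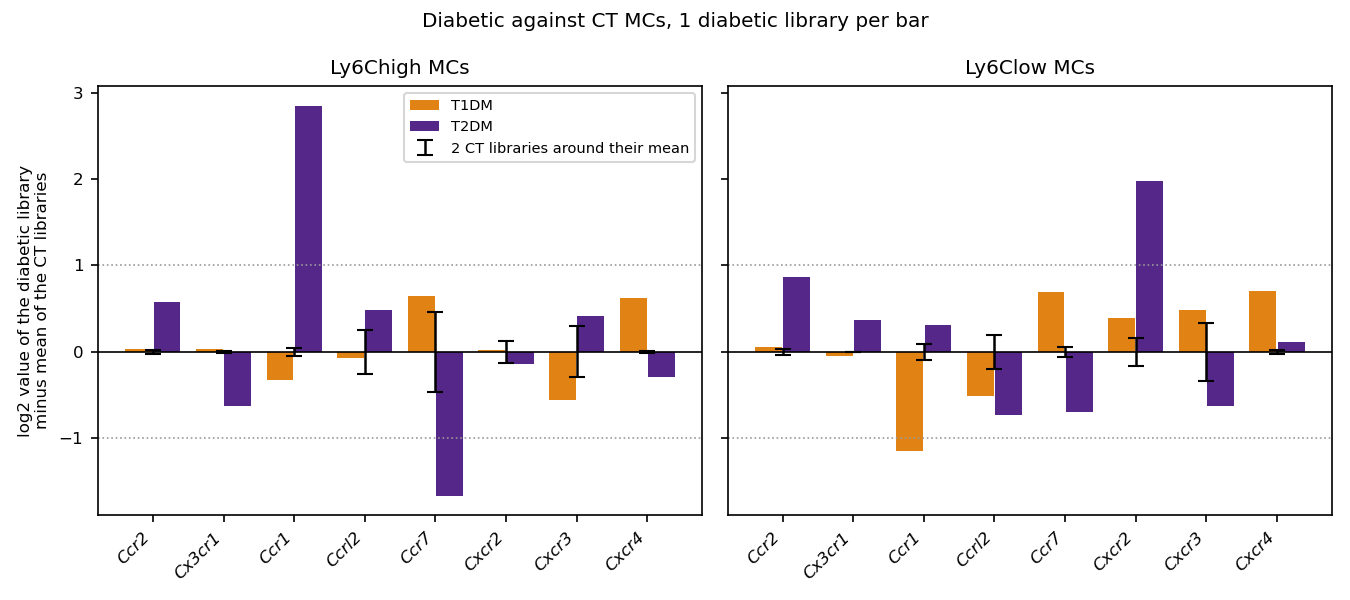
log2 value of each T1DM (orange) and T2DM (purple) library less the CT mean of its subset (vertical axis) for the 8 receptors, with Ly6Chigh MCs on the left and Ly6Clow MCs on the right. Black bars span the 2 CT libraries around their mean, and dotted lines mark 2-fold. T2DM stood at 2.85 for Ccr1 in Ly6Chigh and 1.98 for Cxcr2 in Ly6Clow MCs, and T1DM at 0.62 and 0.70 for Cxcr4.

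Both diabetic models were run on the same sequencer, and were compared over both subsets. limma called 0 of the 8 receptors, beside 0.588% of all genes. At an unadjusted p under 0.05 there were 4 of 8 receptors and 2364 of 16486 genes. The 4 were Ccr1 and Ccr2, higher in T2DM, and Ccr7 and Cxcr4, lower in T2DM. The values of each subset were 3.17 and 1.45 for Ccr1, 0.54 and 0.80 for Ccr2, -2.31 and -1.38 for Ccr7 and -0.90 and -0.59 for Cxcr4, in Ly6Chigh and Ly6Clow MCs. Each had the same direction in both subsets, which the choice of genes by a test over both subsets favours. Both subsets of a model came from the same pooled mice, so they are not independent. Cx3cr1 had -0.66 in Ly6Chigh and 0.42 in Ly6Clow MCs, and over both -0.12 (95% interval -0.66 to 0.42).

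Chemokine ligands were examined for the signals that MCs send themselves, and 15 of 23 listed ligand genes were measured. In the pooled test 4 were called higher in Ly6Chigh MCs and 3 lower, where 12.1% of all genes were called, with a median log2FC over the list of -0.07, beside -0.08 over all genes. Higher were Ccl2 (log2FC 3.56, SE 0.34), the ligand of Ccr2, Ccl6 (1.89, SE 0.13) and Ccl9 (2.14, SE 0.12), which bind Ccr1, and Cxcl10 (3.55, SE 0.58), which binds Cxcr3. Lower were Ccl3 (-2.71, SE 0.50), Ccl4 (-2.09, SE 0.45) and Ccl5 (-2.51, SE 0.28). In CT MCs alone 2 were called higher, Ccl6 and Ccl9, and 1 lower, Ccl5, beside 3.52% of all genes.

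Ccl6 and Ccl9 had log2 values of 9.05 to 9.39 in every Ly6Chigh library. Ly6Clow MCs had Ccl6 values of 6.96 and 6.81 (CT), 7.44 (T1DM) and 7.67 (T2DM), and Ccl9 values of 6.89 and 7.06, 7.27 and 7.53. For both genes the 2 diabetic Ly6Clow libraries were above the CT ones. Ccl2 was low, with 1.91 and 1.45 in the CT libraries, 1.45 in T1DM and 2.67 in T2DM among Ly6Chigh MCs, and was -1.80 in both CT Ly6Clow libraries, -2.21 in T1DM and -0.96 in T2DM Ly6Clow MCs. All Ly6Clow values of Ccl2 lay below all Ly6Chigh values. Equal low values in both CT libraries may stand for no reads, so the size of the Ccl2 difference is uncertain. The same holds for Ccl4, which was -1.08 in both CT Ly6Chigh libraries. Ccl5, a product of NK and T cells, was 6.51 and 6.57 in the CT libraries, 6.80 in T1DM and 3.89 in T2DM among Ly6Clow MCs. The NK cell marker sum was lowest of these libraries in T2DM as well (155.8 against 630.5 to 909.7), and its part in Ccl5 was not tested. Ppbp, a platelet ligand of Cxcr2, was the ligand called between the models. It was lower in T2DM than T1DM over both subsets (log2FC -2.31, limma adjusted p = 0.000637), and platelet marker sums were 98.8 and 125.4 in T2DM and 314.0 and 326.4 in T1DM libraries, a part that was not tested. Cxcl12, the ligand of Cxcr4, had values of -2.38 to 0.57 (log2FC -1.67, adjusted p = 0.0209). Rarres2 had a log2FC of -1.04 (adjusted p = 0.101). Cxcl9 (2.02) and Cxcl2 (0.68) also missed the call, as did Cxcl5, Cxcl11 and Pf4, which were between -0.34 and -0.07.

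**Figure D5:**
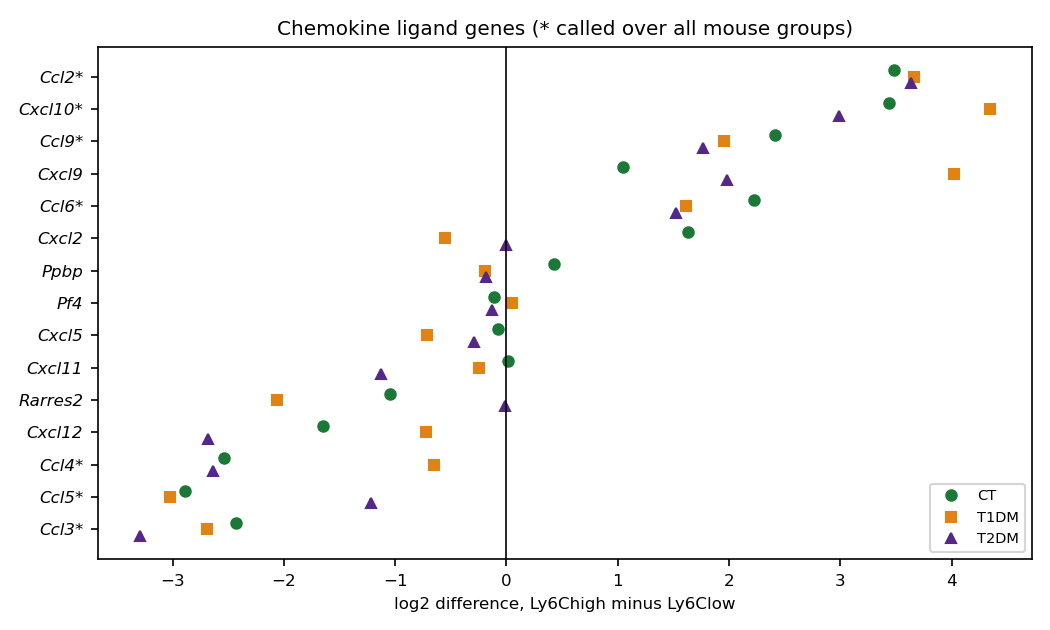
log2 difference of Ly6Chigh minus Ly6Clow MCs (horizontal axis) for 15 chemokine ligand genes in CT (mean of 2 libraries a side), T1DM and T2DM mice (1 library a side). Stars mark the 7 genes called in the pooled test. Ccl2 lay at 3.48 to 3.66 in the 3 mouse groups, and Ccl5 at -2.89 in CT, -3.02 in T1DM and -1.22 in T2DM.

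Of 16 other chemoattractant receptor genes 11 were measured. In the pooled test 3 were called lower and 0 higher in Ly6Chigh MCs by limma (median log2FC -0.61), beside 12.1% of all genes called. They were Cxcr5 (-4.61, SE 0.19), which leads B cells into follicles, Ccr6 (-3.86, SE 0.40), also found on B cells, and the scavenging receptor Ackr2 (-5.34, SE 0.47). Cxcr5 was 2.13 to 3.26 in Ly6Chigh and 6.98 to 7.18 in Ly6Clow libraries, and the B cell markers were split the same way (median pooled log2FC -4.53). Ccr6 was 3.36 and 3.14 in the CT libraries, 2.64 in T1DM and 4.68 in T2DM among Ly6Clow MCs. It was -0.68 in both CT Ly6Chigh libraries, which may stand for no reads and leaves the size of its difference uncertain. Ackr2 was 3.06 to 3.89 in Ly6Clow and -2.40 to -0.66 in Ly6Chigh libraries. Its CT Ly6Chigh replicates were -0.66 and -2.38, so the size of its difference is uncertain too. In CT alone Cxcr5 and Ccr6 were called, beside 3.52% of all genes. Cmklr1, the signalling receptor for chemerin, had a pooled log2FC of 0.97 (SE 0.27, adjusted p = 0.0258). Ccr3, an eosinophil receptor, was 3.53 in T2DM and 2.79 in T1DM Ly6Clow MCs, against 1.65 and 0.96 in CT Ly6Clow MCs. The other measured receptors, Ccr4, Ccr9, Cxcr6, Ackr1, Ackr3 and Ackr4, had log2FC of -1.07 to -0.16 without a call.

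All 28 listed genes of signalling downstream of these receptors were measured. In the pooled test 2 were called higher in Ly6Chigh MCs and 1 lower, with a median log2FC of 0.43. With 12.1% of all genes called in that test, 3 of 28 is a share near the background. Pik3r6, a subunit of the PI3K gamma complex that chemokine receptors activate, had a log2FC of 2.35 (SE 0.16), with values of 5.70 to 6.26 in Ly6Chigh and 3.63 to 3.82 in Ly6Clow libraries. Rgs10, which shortens G protein signals, had 2.05 (SE 0.15), and Rgs1, a gene of the same function prominent in B cells, had -2.81 (SE 0.46). Rgs2 was called in CT (log2FC 1.09, adjusted p = 0.00591) and had 0.94 in the pooled test. Nup85, the nucleoporin described as a Ccr2-binding protein, had a log2FC of -0.18 (SE 0.25, adjusted p = 0.625).

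Of 10 genes of egress and vessel adhesion, all measured, 1 was called higher in Ly6Chigh MCs and 3 lower in the pooled test (median log2FC 0.37), where 12.1% of all genes were called. The lower genes were receptors for the egress signal sphingosine 1-phosphate. S1pr1, the lymphocyte form, had -4.35 (SE 0.35) with values of 1.78 to 3.17 in Ly6Chigh and 6.88 to 7.80 in Ly6Clow libraries. S1pr5, on which nonclassical MCs and NK cells depend to leave the marrow, had -1.63 (SE 0.18), and S1pr4 had -1.33 (SE 0.14). The higher gene was Jaml (1.22, SE 0.25), an adhesion molecule used in crossing endothelium. The part of B cell RNA in Cxcr5, Ccr6, Rgs1 and S1pr1 was not tested.

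For each receptor, the genes whose log2 profile over the 8 libraries lay closest after centring were found by the mean absolute difference, among the 5227 or 5228 genes that average a log2 value of 5 or more. Closest to Ccr2 were Tgfbi (0.144), Mgst1 (0.188) and Msr1 (0.199), and closest to Cx3cr1 were Rufy3 (0.069), Usf1 (0.077) and Ece1 (0.083). Ccr1 was followed by Fpr2 (0.361), a formyl peptide receptor at 7.44 in T2DM Ly6Chigh MCs against 5.41 and 4.93 in CT, then by Shtn1 (0.434) and Pla2g7 (0.440). Ccr7 was followed by Ablim1 (0.324), the immunoglobulin gene Igkc (0.327) and the granzyme gene Gzma (0.377), and Cxcr2 by Bcl11a (0.278), Tmem123 (0.30) and Slc1a5 (0.327). Closest to Cxcr3 were Ell2 (0.215), Slc28a2 (0.232) and Pdia4 (0.244), to Cxcr4 Ivns1abp (0.128), Kmt2e (0.128) and Acsl4 (0.129), and to Ccrl2 Cacybp (0.128), Cul4a (0.129) and Pdia6 (0.138). For Ccr1, Ccr7 and Cxcr2 even the closest genes were further away than those of the other 5 receptors.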

How the data were processed

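Bulk RNA-Seq values of 8 libraries were used. The authors ran Kallisto (0.45), used tximport (1.12.3, under R version 3.6.1) for gene-level values, and deposited a table of normalized log2 expression for 16486 genes (build mm10 in the submitters' processing notes). The normalization between libraries is not given in the sources used here. The values hold no counts, so depth is unknown, and precision rests on the CT replicates. Differences of log2 values were tested with limma (3.58.1, eBayes with trend) in R 4.3.3, two-sided, adjusted over 16486 genes, without pseudocount. T1DM and T2DM have 1 library per subset, so comparisons of single diabetic libraries have no test. Markers of classical and nonclassical MCs, B cells, T cells, NK cells, neutrophils, eosinophils, DCs, plasmacytoid DCs and platelets were summed on the linear scale. Genes named are the 8 receptors, the ligands and other receptors, in the signalling and egress lists up to 4 called genes each by pooled log2FC plus Nup85, and 3 closest genes per receptor. A further gene that this rule includes is not reported here. Cd300e, Nr4a1 and the other markers named singly were chosen after their values were seen. The receptors and lists were chosen with earlier results of these data known. Shared 31-base sequences came from GENCODE M21 transcripts, promoter sequences from RefSeq. Fits were tested on simulated data. Alternatives were a low-value filter, adding 1 before log2, quantile normalization, no trend, a limit of 0.05, a replicate block and leaving out libraries. Figures used Python 3.11.15, pandas 2.3.3 and matplotlib 3.10.9.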

Additional observations from a re-analysis of the deposited data

Results flagged for a closer look

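Cx3cr1 had a Ly6Chigh minus Ly6Clow difference of -0.17 in the T2DM libraries, against 0.83 in CT libraries. T2DM minus CT for Cx3cr1 was -0.63 in Ly6Chigh and 0.37 in Ly6Clow MCs, in opposite directions. Cxcr4 moved in opposite directions as well, at -0.29 in Ly6Chigh and 0.11 in Ly6Clow MCs. The subset difference of Cx3cr1 was flagged because its sign in T2DM was opposite to that of every pairing of CT libraries. The other values were flagged because the T2DM library lay beyond the nearer CT library by more than the CT replicate difference in both subsets, in opposite directions. For Cx3cr1 these distances were 0.62 and 0.36, against replicate differences of 0.02 and 0.01, and for Cxcr4 they were 0.28 and 0.09, against 0.02 and 0.04. Ccrl2, Cxcr2 and Cxcr3 also lay on opposite sides of both CT libraries in the subsets, but in at least 1 subset by less than the replicate difference. With 1 T2DM library per subset none of these differences was tested.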

How the results depend on the processing

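The number of the 8 receptors called between CT subsets was 1. It became 2 with the low-value filter, with quantile normalization and with an adjusted p limit of 0.05, and 0 without the trend, with the replicate block and with any single CT library left out (range 0 to 0). Ccr2 was the gene lost, at an adjusted p of 0.0167 without the trend and 0.0221 with the replicate block. Its log2FC stayed at 3.04 or more where libraries were left out. A fit with a CT library left out has 1 library in a subset, and its loss of calls was not particular to Ccr2. The calls over all genes between CT subsets went from 581 to 1089 with the filter, 1936 at the limit of 0.05 and 0 without the trend or with the block. The replicate numbers share only a number: replicate 1 minus replicate 2 correlated at r = 0.0089 over genes between the CT subsets. The pooled test called 4 receptors at the limit of 0.05 instead of 2. T2DM against T1DM called 97 genes over all, 253 at the limit of 0.05 and 26 without the trend, with 57 to 84 when 1 CT library was left out, and 0 receptors throughout. The interaction called 3 genes over all at the limit of 0.05. T1DM against CT Ly6Chigh MCs had 0 receptors past 2-fold, or 1 without CT Ly6Chigh replicate 1 (range 0 to 1). Ccrl2 had no stable direction: its CT log2FC of -0.15 was 0.10 with quantile normalization and ran from -0.40 to 0.10 with 1 library left out, and its pooled value was -0.002 without the T2DM libraries. Of 259 tested log2FC of receptors under alternatives 4 had another sign, all of Ccrl2. Of 160 single-library differences 5 had another sign, the largest that of Cxcr3 between the T2DM subsets (-0.28, and 0.20 with quantile normalization). The causes were not tested. Depth cannot be given, and low genes such as Cxcr3 and Ccr7 had CT replicate differences of up to 0.92.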
